A study of Mus musculus with 8 samples.

Results

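The subtelomeres described here were the last 1 Mb before the end of each of the 19 mouse autosomes, divided into windows of 5 kb. The end of a chromosome was taken as the largest interval end found on it in any of the 8 libraries, and a window was kept when at least 1 library placed the midpoint of a sequenced fragment (a tag) in it. This left 3754 of 3781 windows, out of 505161 windows with a tag on the autosomes and the X chromosome. The comparison region was made the same way from the windows 10 to 20 Mb before each end, called the interior here, and held 37701 windows. Coordinates are those of the deposited files (mouse build mm9 in the submitters' notes), in which mouse chromosomes are counted from the centromere, so that these ends are the long-arm ends.

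Trimethylation of lysine 9 of histone H3 (H3K9me3) was measured by ChIP-seq in clonal, feeder-free JM8 mouse ES cells of the C57BL/6N strain, all carrying a targeted null *tm2* allele of *Setdb1*, a conditional second allele and Cre-ERT2 knocked into *Rosa26*. Cells were collected untreated (*T* = 0), at the end of a 48 h exposure to 0.8 µM 4′-hydroxytamoxifen (4′OHT; *T* = 2d), and *T* = 4d and *T* = 6d after its start; 4′OHT activates Cre and deletes the conditional allele. GEO's labels name the untreated and treated genotypes tm1a/tm2 and tm1c/tm2, and the methods call them *tm1c/tm2* and *tm1d/tm2*. An Upstate-type antibody (lot 4861) was used at all 4 time points, and Abcam lots 58206 and 638466 at *T* = 0 and *T* = 6d, which gives 1 library per antibody and time point. The sources used here do not say whether the antibodies shared a chromatin preparation. The methods mention low recombination of the locus in uninduced cells of some samples. None of the 8 libraries came from control cells given 4′OHT, so deletion of *Setdb1* and exposure to the drug cannot be told apart. Libraries within an antibody held equal numbers of tags, 6887819 in each Upstate-type library, 8503927 in each lot 58206 library and 12194174 in each lot 638466 library, and tag numbers are compared within an antibody as deposited, with scaling to background windows as an alternative. ChIP libraries hold no expression values, and the ES cell label was not checked against marker genes.

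H3K9me3 is the mark of constitutive heterochromatin, where it is bound by HP1 proteins, and telomeres and the chromatin next to them are among the places where it is known to lie, together with pericentromeric satellites and silenced endogenous retroviruses. Setdb1 (also called Eset) is a histone H3 lysine 9 methyltransferase that KRAB zinc finger proteins recruit through Trim28 (Kap1), mainly to retroviral sequence. The windows describe assembled sequence before the telomere, and the telomere repeat itself was not measured here.

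The last 1 Mb as a whole carried about as much H3K9me3 as the interior. At *T* = 0 the subtelomeric windows averaged 15.5 tags (Upstate-type antibody), 18.1 tags (lot 58206) and 25.1 tags (lot 638466), against 15.3, 18.5 and 27.6 in the interior. The subtelomere to interior ratio of tags per window was 1.01 (95% interval for counting error, 1.0 to 1.02) with the Upstate-type antibody, 0.978 (0.971 to 0.986) for lot 58206 and 0.909 (0.903 to 0.915) for lot 638466. The 3 antibodies thus lay on different sides of 1, and the spread between antibodies was larger than the counting error of any of them. When the interior was replaced by all autosomal windows more than 1 Mb from an end, the ratios were 1.09, 1.04 and 1.0, so the side of 1 depended on the comparison region.

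Strongly marked windows made up more of the subtelomere than of the interior at *T* = 0 with each antibody. Windows with at least 3 times the library's median tag number made up 12.6% of the subtelomere and 11.4% of the interior with the Upstate-type antibody, 2.00% and 1.42% with lot 58206, and 0.373% and 0.138% with lot 638466. The subtelomeric share with lot 638466 corresponds to 14 windows. The median window of the genome held 9, 16 and 24 tags in these 3 libraries, and the part of depth in the differences between antibodies was not tested. Across the 3754 windows, which share their mappability but not their depth between antibodies, the rank correlation of tag numbers at *T* = 0 was 0.664 between the 2 Abcam lots, and 0.439 and 0.476 between the Upstate-type antibody and lots 58206 and 638466. The Abcam lots therefore resembled each other more than they resembled the Upstate-type antibody.

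The ratio differed between chromosomes, and on some of them, such as chromosomes 2, 4 and 6, also between antibodies. The ratio was above 1 in all 8 libraries on 4 chromosomes, below 1 in all 8 on 9 chromosomes, and on both sides of 1 on the other 6. The highest mean ratios at *T* = 0 over the 3 antibodies were those of chromosome 6 (1.56 ± 0.508, SD, n = 3 antibodies) and chromosome 16 (1.55 ± 0.0902). On chromosome 6 the ratio was 2.14, 2.45, 2.27 and 1.97 at *T* = 0, 2d, 4d and 6d with the Upstate-type antibody, 1.32 and 1.18 at *T* = 0 and 6d with lot 58206, and 1.21 and 1.10 with lot 638466. The Upstate-type values stood above both Abcam lots there, whereas chromosome 16 gave 1.54, 1.46 and 1.64 with the 3 antibodies at *T* = 0. Chromosome 4 was split like chromosome 6, with 1.98, 2.05, 2.03 and 1.93 along the Upstate-type time course. There lot 58206 gave 1.38 and 1.43 at *T* = 0 and 6d, and lot 638466 gave 1.15 and 1.06. On chromosome 2 the Upstate-type values were 1.39 to 1.46, and those of the Abcam lots 0.976 to 1.10. The lowest mean ratios were those of chromosome 12 (0.586 ± 0.0886) and chromosome 18 (0.645 ± 0.0685). On chromosome 12 the 8 libraries ranged from 0.464 to 0.720, and 0 of its windows averaged 2 times the median, a level that here compares a window's mean depth-scaled tag number (CPM) over the *T* = 0 and *T* = 6d libraries with the median of that mean over all windows.

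**Figure D1:**
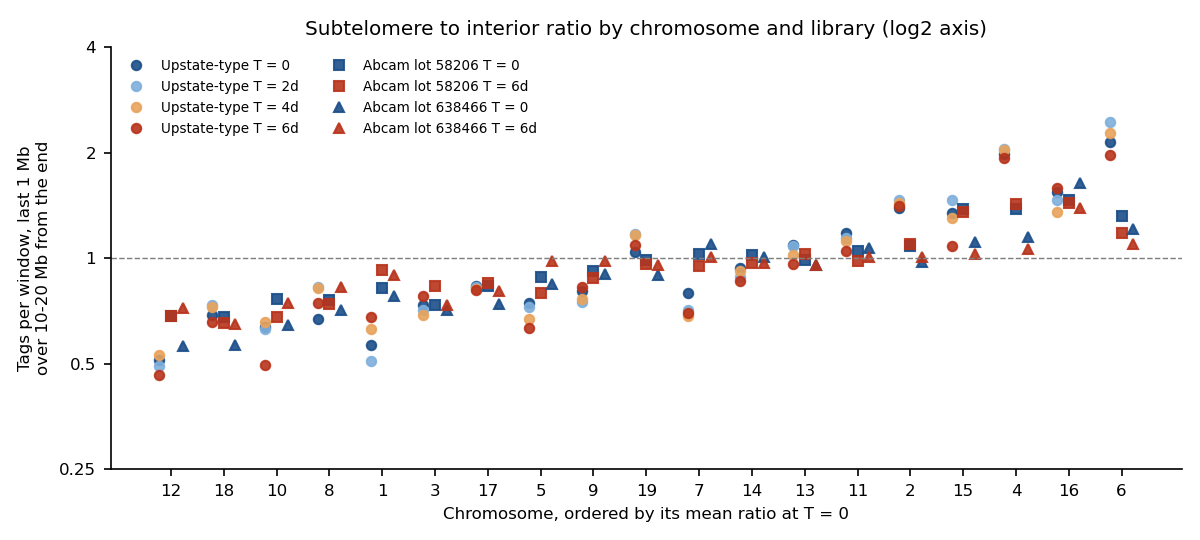
Ratio of tags per 5-kb window in the last 1 Mb to that 10 to 20 Mb from the end, for each of the 19 autosomes (x axis, ordered by the mean ratio at *T* = 0) on a log2 axis; circles, squares and triangles are the 3 antibodies and colours the time points, 1 point per library. Chromosome 12 stays between 0.464 and 0.720 and chromosome 6 between 1.10 and 2.45 in the 8 libraries.

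The question put to the time course was whether H3K9me3 at chromosome ends moves after *Setdb1* deletion differently from the interior. For the whole last 1 Mb the ratio at *T* = 6d differed from that at *T* = 0 in opposite directions with different antibodies. With the Upstate-type antibody it was 1.01, 1.03, 1.01 and 0.966 at *T* = 0, 2d, 4d and 6d. By two-sided Fisher's exact tests, the log2 change from *T* = 0 was 0.029 at *T* = 2d (95% interval 0.012 to 0.047, exact P = 0.000973). It was -0.002 at *T* = 4d (-0.019 to 0.016, exact P = 0.863) and -0.067 at *T* = 6d (-0.085 to -0.050, exact P = 4.53e-14). With lot 58206 the ratio at *T* = 6d was 0.961, a log2 change of -0.025 (Fisher's exact test P = 0.00209), and with lot 638466 it was 0.930, a log2 change of 0.033 (Fisher's exact test P = 2.59e-06). Adjusted over these 5 comparisons by the Benjamini-Hochberg method, the P values were 0.00162, 0.863, 2.26e-13, 0.00261 and 6.47e-06 in the order given. These tests count tags and compare libraries, not cultures, and P values across antibodies measure the spread between these libraries, which may be technical. Over the 3 antibodies the mean log2 change at *T* = 6d was -0.020 ± 0.0502 (SD, n = 3; exact two-sided sign-flip permutation test, P = 0.75, where the smallest possible value is 0.25), lower in 2 of 3 antibodies. For the last 0.5 Mb all 3 antibodies were lower, with log2 changes of -0.135 (exact P = 6.3e-29), -0.103 (exact P = 3.11e-19) and -0.025 (exact P = 0.0125) by Fisher's exact tests and a mean of -0.088 (exact sign-flip permutation P = 0.25, the smallest possible). When the whole last 1 Mb was instead set against all windows over 1 Mb from the end, the log2 changes were -0.03, -0.007 (exact P = 0.404) and -0.024. Against the interior but without the last 100 kb, they were -0.021, 0.011 and 0.061.

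In 100-kb steps from the end, lower values at *T* = 6d than at *T* = 0 with all 3 antibodies were seen in the last of the 10 steps within the subtelomere alone. They were not particular to it, since each 1-Mb step from 2 to 10 Mb was also lower with all 3 antibodies, as at 6 to 7 Mb, where the level went from 1.16 to 1.06, from 1.08 to 1.05 and from 1.1 to 1.04. The last 100 kb (377 windows) was the highest of the 10 steps at *T* = 0 with every antibody, at 1.39 (Upstate-type), 1.18 (lot 58206) and 0.997 (lot 638466) times the interior. At *T* = 6d the same step stood at 1.05, 0.947 and 0.855, and with the Upstate-type antibody it passed through 1.36 at *T* = 2d and 1.17 at *T* = 4d. The next 100 kb stood at 0.878, 0.954 and 0.867 at *T* = 0, and at 0.708, 0.842 and 0.877 at *T* = 6d. From 500 kb to 1 Mb the tag number at *T* = 6d was 1.03, 1.05 and 1.02 times that at *T* = 0 with the 3 antibodies. The step from 400 to 500 kb was high with the Upstate-type antibody alone, at 1.26, 1.49, 1.44 and 1.32 at *T* = 0, 2d, 4d and 6d, against 0.991 and 1.03 with lot 58206 and 0.877 and 0.907 with lot 638466.

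**Figure D2:**
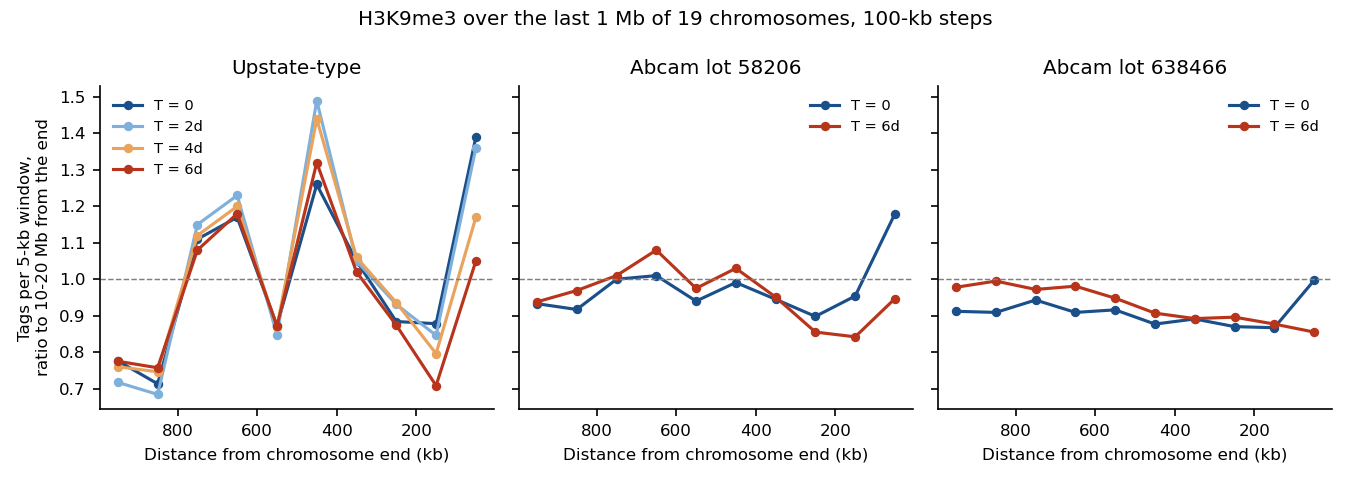
Tags per 5-kb window in 100-kb steps from the chromosome end (x axis, kb; the end is at the right), as a ratio to the windows 10 to 20 Mb from the end (y axis), summed over the 19 autosomes; each line is 1 library and colours are time points. The last step falls from 1.39 to 1.05, from 1.18 to 0.947 and from 0.997 to 0.855 between *T* = 0 and *T* = 6d with the 3 antibodies.

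Summed over the 19 chromosomes, the last 100 kb held 8014, 7785, 6735 and 6242 tags at *T* = 0, 2d, 4d and 6d with the Upstate-type antibody, 8256 and 6696 at *T* = 0 and 6d with lot 58206, and 10390 and 8553 with lot 638466. The tag number was highest at *T* = 0 with all 3 antibodies, and *T* = 6d gave 0.779 (95% interval 0.753 to 0.805), 0.811 (0.785 to 0.838) and 0.823 (0.800 to 0.847) times as many tags. These sums end at the last whole window. With the stretch past it, a choice made after seeing the data, the factors were 0.802, 0.792 and 0.816. On chromosome 13 that stretch held more Upstate-type tags at every later time point than at *T* = 0. The Upstate-type factor of chromosome 13 at *T* = 6d was 0.828 over whole windows and 0.947 (0.891 to 1.01) with that stretch, and at *T* = 4d it was 0.900 and 1.06. The windows from 100 kb to 1 Mb gave 1.01, 1.02 and 1.0 times as many tags at *T* = 6d. The last 100 kb was singled out after its values were seen, so the sums are given without a test. The last 100 kb held fewer tags at *T* = 6d on 16, 18 and 14 of the 19 chromosomes with the 3 antibodies, and on 13 chromosomes with all 3. Without chromosomes 2, 4 and 13, whose last 100 kb held the most tags at *T* = 0 with both Abcam lots (chromosome 2 was behind 16 and 18 with the Upstate-type antibody), the factors were 0.821, 0.845 and 0.900.

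The chromosomes did not behave alike over the last 100 kb. Chromosome 1 held 234, 180, 128 and 96 tags along the Upstate-type time course, 284 and 178 with lot 58206 and 379 and 348 with lot 638466, so that its factor was 0.410 with the first antibody and 0.918 with the last. Chromosome 2 held 567, 544, 390 and 234 tags along the Upstate-type time course, 660 and 412 with lot 58206 and 868 and 682 with lot 638466. Chromosome 4 held 1041, 678, 577 and 738 tags along the Upstate-type time course, 910 and 561 with lot 58206 and 968 and 437 with lot 638466, in 18 windows. On chromosome 4 the Upstate-type tag number was lowest at *T* = 4d, and the factor at *T* = 6d was 0.709, 0.616 and 0.451 with the 3 antibodies. Chromosome 3 was the exception with every antibody, with 217, 222, 226 and 454 Upstate-type tags, 333 and 401 with lot 58206 and 439 and 534 with lot 638466. Its factors at *T* = 6d were 2.09 (95% interval 1.78 to 2.47), 1.20 (1.04 to 1.40) and 1.22 (1.07 to 1.38), and its Upstate-type tag number was flat up to *T* = 4d.

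**Figure D3:**
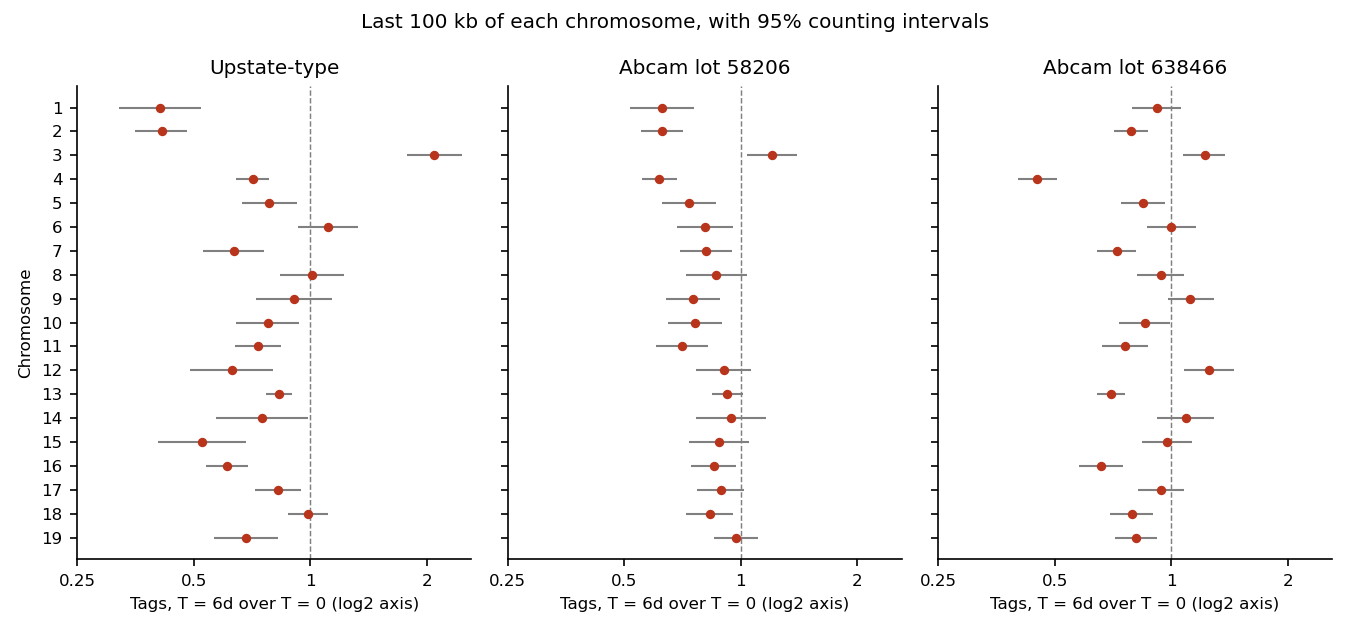
Tags in the last 100 kb of each autosome at *T* = 6d divided by those at *T* = 0 (x axis, log2), for the 3 antibodies; each point is 1 pair of libraries and the bar is its exact 95% interval for counting error. Most chromosomes lie left of 1, and chromosome 3 lies right of it with all 3 antibodies (2.09, 1.20 and 1.22).

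Single windows were then tested against the whole genome. Across the 3 antibodies, limma with the antibody as a block tested the 29469 windows that averaged 2 times the median in this sense, and called a window with an adjusted P below 0.05 and a change above 1.5-fold. Of 313 subtelomeric windows tested, 14 (4.47%) were lower at *T* = 6d, where the background over all tested windows was 3.54%, and interior windows gave 2.46%. None was higher by limma (5 at an unadjusted P below 0.05), where the background was 0.0238%. The share of lower windows in the subtelomere was thus near that of the genome at this filter. Averaging multiples of each library's own median instead, run after seeing the data, tested 455 subtelomeric windows and called 20 of them (4.4%) lower against 3.49% over all windows, among them all 14. It was 1.92% (6 windows) without the Upstate-type antibody and 1.92% without lot 638466, where the genome was at 1.89% and 1.83%, and no window was called without the antibody block. Among windows averaging 3 times the median it was higher, with 9 of 91 (9.89%) against 3.99% over all windows and 2.76% in the interior. Of these 9, 5 were adjoining windows of chromosome 4, and without that chromosome 4 of 58 (6.9%) were lower against 3.89% over all windows, a difference that was not tested. The 14 windows lay on 6 chromosomes, and each had fewer tags at *T* = 6d with every antibody. At *T* = 0, 194 of the 313 tested windows reached 2 times the library's own median with the Upstate-type antibody alone, and 29 did with all 3 antibodies. Of the 14 lower windows, 11 were among those 29, 0 among those 194 and 3 among the rest. This split used the *T* = 0 values and was not tested. Of the 43 tested windows in the last 100 kb, 11 (25.6%) were lower, and of the 270 tested windows from 100 kb to 1 Mb, 3 (1.11%) were, a split described after the calls were seen. Leaving out chromosome 4 brought the share of lower windows in the subtelomere to 3.28%, below the 3.54% of all tested windows with chromosome 4 included.

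**Figure D4:**
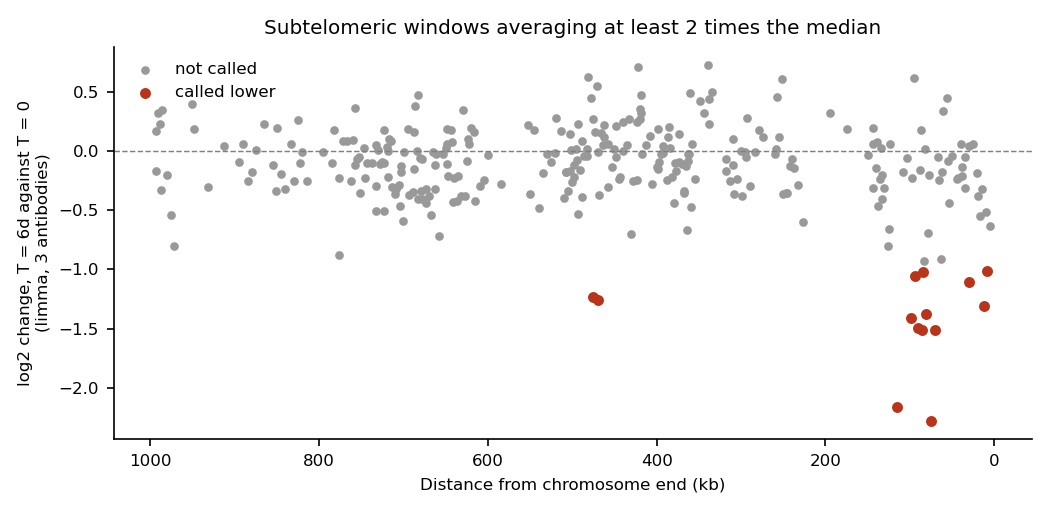
log2 change from *T* = 0 to *T* = 6d across the 3 antibodies (y axis, limma) against distance from the chromosome end (x axis, kb), for the 313 subtelomeric windows tested; each point is 1 window, and red points are the 14 called lower. Of the red points, 12 lie within 120 kb of the end and the other 2 are neighbours 470 and 475 kb from the end of chromosome 7.

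Among the 313 windows tested, the 5 strongest falls were all on chromosome 4, between 70.4 and 115 kb from its end. The window chr4:155550001-155555000 held 182, 88, 77 and 73 tags at *T* = 0, 2d, 4d and 6d with the Upstate-type antibody, 162 and 10 at *T* = 0 and 6d with lot 58206, and 125 and 26 with lot 638466. All 3 antibodies were high at *T* = 0, and the Upstate-type library held fewer tags at each later time point. Its log2 change was -2.28 ± 0.34 (SE; limma adjusted P = 0.000181), and it was -1.65 without lot 58206. The window chr4:155510001-155515000, 115 kb from the end, held 57, 42, 9 and 4 tags along the Upstate-type time course, 56 and 11 with lot 58206 and 73 and 22 with lot 638466, a log2 change of -2.17 ± 0.34 (limma adjusted P = 0.000299). Here the Upstate-type count at *T* = 2d was 0.737 times that at *T* = 0 (0.483 to 1.12), and the counts at *T* = 4d and *T* = 6d were lower still. The windows chr4:155540001-155545000, chr4:155555001-155560000 and chr4:155535001-155540000 changed by -1.52 ± 0.32, -1.51 ± 0.30 and -1.50 ± 0.29 on the log2 scale (limma adjusted P = 0.00508, 0.00252 and 0.00195). The window chr4:155545001-155550000 between them was called too, so that 5 neighbouring windows formed 1 block of lower H3K9me3. Along the Upstate-type time course it held 172, 102, 109 and 119 tags, and chr4:155540001-155545000 held 164, 109, 72 and 115. By Fisher's exact test both were lower at *T* = 2d and 4d with this antibody and at *T* = 6d with each Abcam lot. With the Upstate-type antibody neither was called at *T* = 6d, where the factors were 0.692 and 0.701. With fewer libraries some of the limma calls were lost while the windows stayed lower. Without lot 638466, chr4:155510001-155515000 changed by -2.50 ± 0.90 on the log2 scale (limma adjusted P = 0.173) and chr4:155555001-155560000 by -1.30 ± 0.43 (limma adjusted P = 0.107). Without the Upstate-type antibody, the latter changed by -1.93 ± 0.63 (limma adjusted P = 0.0822) and chr4:155535001-155540000 by -1.74 ± 0.56 (limma adjusted P = 0.0726). With no filter on level, limma kept the call of chr4:155510001-155515000 alone among these 5 strongest falls (adjusted P = 0.024, against 0.0562 to 0.167 for the other 4).

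At 500-bp resolution the tags of this chromosome 4 block were spread over its length at *T* = 0. At *T* = 6d its 5 windows held 10 to 22 tags with lot 58206, where the genome median was 15.0, and 22 to 34 with lot 638466, where it was 25. With the Upstate-type antibody they still held 57 to 119 tags, against a median of 9.0. On the centromeric side, a window just below the level that limma tested (1.88 times the median) was lower too. The window chr4:155530001-155535000 held 63, 32, 5 and 5 tags along the Upstate-type time course, 34 and 10 with lot 58206 and 57 and 15 with lot 638466, and was lower in each comparison with *T* = 0 by Fisher's exact test. With the level set by each library's own median it was tested and called (log2 change -1.99 ± 0.35, limma adjusted P = 0.00124), which would place it among the 5 strongest falls. On the telomeric side, chr4:155570001-155575000 held 5, 5, 9 and 12 Upstate-type tags, 47 and 104 with lot 58206 and 32 and 19 with lot 638466, and limma did not call it. It was higher with lot 58206 (Fisher's exact test P = 4.03e-06), so the block did not extend over this window.

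**Figure D5:**
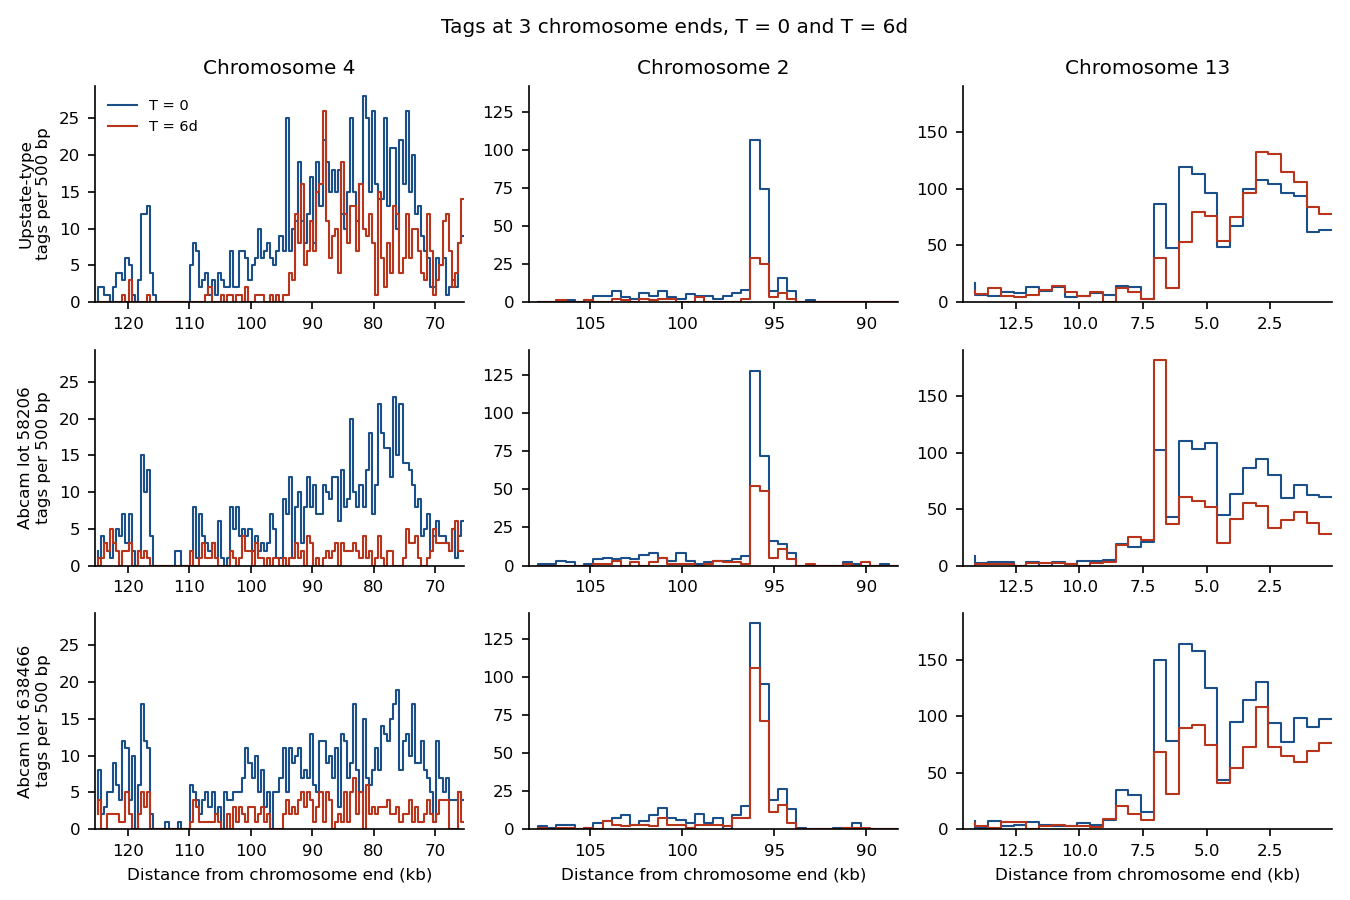
Tags per 500 bp (y axis) against distance from the chromosome end (x axis, kb) on chromosomes 4, 2 and 13 (columns) with the 3 antibodies (rows), at *T* = 0 (blue) and *T* = 6d (red), each line 1 library. On chromosome 4 a broad stretch is lower at *T* = 6d, on chromosome 2 a narrow peak (106 tags in its highest Upstate-type bin at *T* = 0 and 29 at *T* = 6d), and on chromosome 13 high signal lies near the end at both time points.

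Chromosome 2 carried a narrow peak. The window chr2:181650001-181655000, 93.3 kb from the end, averaged 11.9 times the median and held 230, 197, 115 and 67 tags along the Upstate-type time course, 254 and 129 with lot 58206 and 320 and 227 with lot 638466. The count was lower at each later Upstate-type time point and at *T* = 6d with both Abcam lots, with a log2 change of -1.06 ± 0.27 (limma adjusted P = 0.0265). Most of its tags lay in 2 adjoining bins of 500 bp, where chr2:181652001-181652500 held 106, 93, 47 and 29 Upstate-type tags. The neighbour chr2:181645001-181650000, on the centromeric side, held 40, 35, 9 and 11 Upstate-type tags, 46 and 13 with lot 58206 and 71 and 30 with lot 638466 (log2 change -1.41 ± 0.28, limma adjusted P = 0.00250).

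Among the other windows called, chr18:90755001-90760000, 11.9 kb from the end, held 95, 86, 63 and 42 tags along the Upstate-type time course, 41 and 14 with lot 58206 and 73 and 22 with lot 638466 (log2 change -1.31 ± 0.27, limma adjusted P = 0.00346). The window chr10:129980001-129985000, 8.51 kb from the end, held 51, 59, 57 and 21 Upstate-type tags, 60 and 29 with lot 58206 and 50 and 23 with lot 638466 (-1.02 ± 0.26, limma adjusted P = 0.0259). With the Upstate-type antibody, Fisher's exact test called neither window lower before *T* = 6d. Chromosome 16 had windows 29.4 and 84.4 kb from its end, with log2 changes of -1.11 and -1.02. On chromosome 7 the neighbouring windows chr7:152045001-152050000 and chr7:152050001-152055000, 475 and 470 kb from the end, changed by -1.24 ± 0.32 and -1.26 ± 0.30. The second held 67, 79, 55 and 12 Upstate-type tags, 38 and 16 with lot 58206 and 49 and 32 with lot 638466. For the pair together the factor at *T* = 6d was 0.162 with the Upstate-type antibody and nearer to 1 with lots 58206 (0.635) and 638466 (0.573).

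Pairs of libraries were then compared window by window (Fisher's exact test, called at P below 0.01 and more than 1.5-fold change). With the Upstate-type antibody, 44 of 3524 subtelomeric windows (1.25%) were lower at *T* = 2d, against a background of 0.869%, and 44 (1.25%) were higher, against 0.879%. At *T* = 4d, 93 of 3555 (2.62%) were lower, against 2.26%, and 55 (1.55%) were higher, against 1.15%. At *T* = 6d, 138 of 3534 (3.90%) were lower, against 3.35%, and 66 (1.87%) were higher, against 2.14%. With lot 58206, 96 of 3656 (2.63%) were lower, against 2.07%, and 88 (2.41%) were higher, against 1.82%. With lot 638466, 83 of 3686 (2.25%) were lower, against 1.99%, and 37 (1.0%) were higher, against 1.14%. All of these shares were near the background. When libraries were scaled to background windows, 32 lower and 83 higher windows were called at *T* = 2d with the Upstate-type antibody and 118 lower and 28 higher with lot 638466, so the balance of directions in these comparisons depended on the scaling. It moved the same way over all windows, to 0.706% lower and 1.64% higher at *T* = 2d and to 2.73% and 1.02% with lot 638466.

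Within the subtelomere a larger share of windows was called near the end. In the last 100 kb, 11.3% of tested windows were lower at *T* = 6d (Upstate-type antibody), as were 10.7% (lot 58206) and 6.76% (lot 638466), against 3.10%, 1.73% and 1.75% from 100 kb to 1 Mb. With the Upstate-type antibody the share in the last 100 kb was 3.47% at *T* = 2d and 8.31% at *T* = 4d. Over all windows the shares at these 2 time points were 0.869% and 2.26%. Higher calls at *T* = 6d were 3.20%, 3.30% and 0.270% of tested windows in the last 100 kb, against 1.72%, 2.31% and 1.09% from 100 kb to 1 Mb. The share of higher calls was thus also larger in the last 100 kb with the Upstate-type antibody and lot 58206, and smaller with lot 638466. These splits were made after the values were seen and were not tested.

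With all 3 antibodies, 19 subtelomeric windows were lower at *T* = 6d by Fisher's exact test, on 9 chromosomes. These were 0.54% of the 3521 subtelomeric windows tested with each antibody, against a background of 0.436% over all such windows, so the share was near the background. None was higher with all 3 antibodies, where the background was 0.00152%. Of the 19 lower windows, 10 lay in the last 100 kb, 7 were on chromosome 4, and 12 were below the level that limma tested. The window chr4:155055001-155060000, 570 kb from the end, held 37, 18, 7 and 1 tags along the Upstate-type time course, 48 and 6 with lot 58206 and 43 and 5 with lot 638466, and so was nearly empty at *T* = 6d with every antibody. The window chr6:149305001-149310000, 207 kb from the end, held 56, 35, 10 and 7 Upstate-type tags, 52 and 7 with lot 58206 and 51 and 19 with lot 638466, and it too would join the 5 strongest falls with the level set by each library's own median (log2 change -2.01 ± 0.32, limma adjusted P = 0.000635). On chromosome 11, chr11:121755001-121760000 held 25, 11, 3 and 4 Upstate-type tags, 27 and 7 with lot 58206 and 32 and 11 with lot 638466.

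Another 4 windows were higher by Fisher's exact test with 2 antibodies at *T* = 6d (0.114%, against a background of 0.11% for at least 2 antibodies). Of these, chr6:149090001-149095000 held 55, 64, 79 and 93 tags along the Upstate-type time course, 49 and 94 with lot 58206 and 32 and 49 with lot 638466. It had more tags at *T* = 6d with each antibody, and its Upstate-type count was higher at each later time point than at the one before. The others lay on chromosomes 6, 8 and 18. Calls in opposite directions with different antibodies were made in 8 subtelomeric windows (0.227%), against a background of 0.157%.

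The regions with most H3K9me3 were found by joining neighbouring windows of the level that limma tested, a choice that used these values. It gave 131 regions, of which 70 were single windows and the longest was 50 kb. The first by tags above the median was chr13:120235001-120280000, next to the end of chromosome 13, with 1037, 1149, 939 and 879 tags along the Upstate-type time course, 741 and 654 with lot 58206 and 1019 and 637 with lot 638466. Its last window, chr13:120275001-120280000, averaged 29.4 times the median and held 507, 481, 320 and 293 Upstate-type tags, 531 and 460 with lot 58206 and 767 and 406 with lot 638466. This window had the highest tag number of the whole windows in the subtelomere in every library. It was lower at *T* = 4d and *T* = 6d with the Upstate-type antibody (exact P = 8.29e-11 and 3.57e-14) and with lot 638466 (exact P = 3.11e-26), and across the 3 antibodies limma gave a log2 change of -0.63 ± 0.21 with an adjusted P of 0.146, which missed the threshold. The second region, chr4:155535001-155580000, held the block described above, with 5 of its 9 windows called lower.

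The other 8 of the 10 leading regions were marked chiefly with the Upstate-type antibody and held no window called by limma. At *T* = 0 they stood at 6.97 to 11.8 times the library's median with the Upstate-type antibody. With lots 58206 and 638466 they stood at 1.09 to 2.38 and 1.03 to 1.76 times it, so some were near the median with an Abcam lot. On chromosome 6, chr6:149255001-149290000 held 630, 1040, 1039 and 859 tags along the Upstate-type time course, 258 and 305 with lot 58206 and 296 and 226 with lot 638466, which is 10.0 times the median at *T* = 0 with the Upstate-type antibody and 2.30 and 1.76 times with the Abcam lots. By Fisher's exact test with the Upstate-type antibody, 5, 3 and 1 of its 7 windows were higher at the 3 later time points in turn, where 7.01%, 3.52% and 5.46% of all windows averaging 2 times the median, the level from which regions were built, were higher. At *T* = 6d, 2 were higher with lot 58206 (12.9% of all windows of that level) and 1 was lower with lot 638466 (7.92%). On chromosome 8, chr8:131230001-131270000, 466 kb from the end, held 502, 1085, 1063 and 965 Upstate-type tags, 173 and 114 with lot 58206 and 261 and 272 with lot 638466. Its factors at *T* = 6d were 1.92 (1.72 to 2.15), 0.659 (0.516 to 0.84) and 1.04 (0.876 to 1.24) with the 3 antibodies. Beyond counting error, the region was thus higher with the Upstate-type antibody and lower with lot 58206. All 8 of its windows were higher at *T* = 2d by Fisher's exact test with the Upstate-type antibody, and by *T* = 4d and *T* = 6d the numbers were 5 and 6, to be read against the same 7.01%, 3.52% and 5.46%, while no window was higher with either Abcam lot and 1 was lower with lot 638466. On chromosome 19, chr19:60830001-60870000 held 772, 1074, 920 and 744 Upstate-type tags, 227 and 274 with lot 58206 and 197 and 195 with lot 638466, so its Upstate-type level at *T* = 6d was near that at *T* = 0. Chromosome 2 had chr2:181055001-181105000, with 785, 748, 729 and 720 Upstate-type tags, 263 and 246 with lot 58206 and 363 and 269 with lot 638466. Its factors at *T* = 6d were 0.917, 0.935 and 0.741 (0.631 to 0.87), lower beyond counting error with lot 638466. Chromosome 4 held 3 of the remaining regions, with factors at *T* = 6d of 1.14, 1.09 and 0.909 for the Upstate-type antibody, 0.813, 1.17 and 1.38 for lot 58206 and 0.923, 0.803 and 0.796 for lot 638466. The antibodies shared no direction in any of the 3. Chromosome 6 held the last region, chr6:148865001-148895000, with 598, 826, 734 and 529 Upstate-type tags, 194 and 210 with lot 58206 and 197 and 156 with lot 638466. Its Upstate-type factor at *T* = 2d was 1.38 (1.24 to 1.54). At *T* = 6d its factors were 0.885 (0.785 to 0.996), 1.08 (0.886 to 1.32) and 0.792 (0.638 to 0.982) with the 3 antibodies.

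The last whole window of each chromosome ended less than 5 kb from the end in the files. Apart from chromosome 13, these 18 windows held at most 53 tags in the Upstate-type library at *T* = 0, with a median of 11.0, against 17.5 with lot 58206 and 20.5 with lot 638466. Over the 18 windows the tag number at *T* = 6d was 0.568, 0.776 and 0.739 times that at *T* = 0 with the 3 antibodies. With the Upstate-type antibody the sums were 264, 228, 155 and 150 tags at *T* = 0, 2d, 4d and 6d. By Fisher's exact test, over all 19 last windows, 3 of 16 tested were lower at *T* = 6d with the Upstate-type antibody, 1 of 18 with lot 58206 and 2 of 19 with lot 638466, against 3.35%, 2.07% and 1.99% over all windows, and none was higher. On chromosome 17, chr17:95265001-95270000 held 53, 61, 25 and 16 Upstate-type tags, 44 and 15 with lot 58206 and 38 and 20 with lot 638466, where *T* = 6d was the lowest value with each antibody. On chromosome 19 the last window held 7, 14, 5 and 13 Upstate-type tags, 17 and 22 with lot 58206 and 28 and 23 with lot 638466, with no common direction.

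Gene names can be given for these ends only by order, from RefSeq annotation of a later build (GRCm38.p6), and their positions relative to the windows above were not determined. In that order the last 3 protein-coding genes of chromosome 4 are *Noc2l*, *Samd11* and *Vmn2r129*, the last a vomeronasal receptor gene. Those of chromosome 10 are the vomeronasal receptor genes *Vmn2r85*, *Vmn2r86* and *Vmn2r87*. Those of chromosome 13 are *AF067061*, *BC147527* and *Tcstv3*, and those of chromosome 2 are *Polr3k*, which encodes a subunit of RNA polymerase III, *Gm40035* and *Gm14496*.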

How the data were processed

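The deposited files list the authors' tags as 300-bp intervals; the aligner is not given in the sources used here, and the build (mm9) comes from the submitters' processing notes. Interval positions were the only columns used (unit: other, base positions as deposited), and no count table or input library was used. Equal tag numbers within an antibody were made by the authors, and each library repeated no start. Tags were assigned by midpoint to 5-kb windows (Python 3.11.15, numpy 2.4.6, pandas 2.3.3, scipy 1.17.1).

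Ratios carry exact conditional (Clopper-Pearson) 95% intervals, which cover counting error only. Windows were compared between 2 libraries by two-sided Fisher's exact tests where both together held at least 8 tags, and across antibodies with limma 3.58.1 (R 4.3.3; trend, antibody block) on log2(CPM + 0.5), CPM being computed here from the deposited tag totals, a scale that understates changes of low windows. The filter on level was planned in multiples of the library median and was applied to the mean CPM over 6 libraries relative to its median window; multiples of each library's own median were run as an alternative, under which 9 of the 10 leading regions overlapped a leading region. The replicate number marks the antibody, and deviations of same-antibody libraries correlated at 0.907, 0.894 and 0.424 over 29469 windows. Scripts were tested on simulated tags.

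Named windows were the 10 regions with most tags above the median, the 5 largest falls (and 3 largest rises, of which there were none) called by limma and alike in every antibody, the last window of each chromosome, and the chromosomes with the 2 highest and 2 lowest ratios; other windows were named after their values were seen. Members, lists and tests were chosen with earlier results of these data known. Alternatives were other window sizes, lengths, scalings, filters, pseudocounts and left-out antibodies.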

Additional observations from a re-analysis of the deposited data

Results flagged for a closer look

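In 8 subtelomeric windows the antibodies gave opposite calls at *T* = 6d by Fisher's exact test, lower with 1 antibody and higher with another. They were 0.227% of the windows tested with each antibody, against 0.157% over all such windows, and the difference itself was not tested. In 4 of them lot 58206 was higher and lot 638466 lower. The window chr4:155315001-155320000, 310 kb from the end, held 13, 7, 11 and 14 tags at *T* = 0, 2d, 4d and 6d with the Upstate-type antibody, 62 and 152 at *T* = 0 and 6d with lot 58206, and 45 and 19 with lot 638466. The window chr8:131265001-131270000 held 44, 89, 192 and 128 Upstate-type tags, 29 and 24 with lot 58206 and 59 and 32 with lot 638466.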

How the results depend on the processing

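Each condition had 1 library per antibody, so tests between 2 libraries measure counting error, and the 3 antibodies are not separate cultures. Depth limits weak windows, since a window with fewer than 8 tags in both libraries together could not be called. For the 5 chromosome 4 windows with the largest falls, the call was kept in 41 and lost in 13 of the alternative fits, with the same direction in each; all 5 lost it without the block (limma adjusted P = 1.0).

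The mean subtelomere to interior ratio at *T* = 0 was 1.04 against all windows over 1 Mb from the end. At *T* = 6d it was 0.932 for the last 0.5 Mb, 0.974 for the last 2 Mb, 1.03 against all windows over 1 Mb from the end, 0.981 with windows of at least 0.5 of the genome median, and 0.903 from median tags. The log2 change of the ratio with the Upstate-type antibody at *T* = 2d was 0.017 against all windows over 1 Mb away (Fisher's exact test P = 0.0504) and 0.016 without windows above 20 times the median (P = 0.0814, exact). At *T* = 4d it was 0.002 for the last 2 Mb, 0.004 with windows of at least 0.5 of the median, -0.152 from medians and 0.034 without the last 100 kb, a choice made after seeing the data. At *T* = 6d it was -0.152 from medians and -0.021 without the last 100 kb. With lot 58206 it was 0.001 for the last 2 Mb, -0.007 against all windows over 1 Mb away (Fisher's exact test P = 0.404), -0.093 from medians and 0.011 without the last 100 kb. With lot 638466 it was -0.025 for the last 0.5 Mb, -0.024 against all windows over 1 Mb away, 0.111 from medians and 0.061 without the last 100 kb. The mean over antibodies was -0.088 for the last 0.5 Mb, 0.017 without the last 100 kb, and -0.046 to 0.004 when each antibody was left out in turn, the sign turning without the Upstate-type antibody (0.004). The cause of these shifts was not tested.

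For windows called by Fisher's exact test, shares over all windows at the same setting follow in brackets. An adjusted P below 0.05 gave 0.0851% lower and 0.454% higher at *T* = 2d (0.0567% and 0.151%), 1.18% lower and 0.45% higher at *T* = 4d (0.895% and 0.308%), 2.32% lower and 0.764% higher at *T* = 6d with the Upstate-type antibody (1.76% and 0.786%), 0.766% and 1.09% with lot 58206 (0.661% and 0.718%), and 0.705% and 0.0271% with lot 638466 (0.43% and 0.0463%). Keeping windows that averaged 2 times the median gave 2.24% lower and 7.69% higher at *T* = 2d (1.79% and 7.01%), 6.09% lower and 6.09% higher at *T* = 4d (5.97% and 3.52%), 8.01% lower and 7.05% higher at *T* = 6d (9.4% and 5.46%), 7.67% and 14.1% with lot 58206 (6.6% and 12.9%), and 8.63% and 0.0% with lot 638466 (7.92% and 0.122%). Windows of 10 kb gave 4.18% lower and 2.57% higher at *T* = 4d (3.49% and 1.86%), 6.35% lower and 3.34% higher at *T* = 6d (5.3% and 3.92%), 4.06% lower with lot 58206 (3.38%), and 3.95% and 2.3% with lot 638466 (3.43% and 2.19%). Windows of 2 kb gave 1.35% and 1.48% with lot 58206 (1.04% and 1.13%), and 1.26% and 0.42% with lot 638466 (0.97% and 0.519%). Scaling to background windows gave 2.33% higher at *T* = 2d (1.64%).

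Across the 3 antibodies limma called 4.47% of the tested windows lower (3.54% over all windows). Without the pairing of libraries by antibody as a block, it called 0.0% (0.00679%). Leaving out each antibody in turn gave 1.92% to 3.51% (1.83% to 2.93%), with 1.92% both without the Upstate-type antibody and without lot 638466. A pseudocount of 2 gave 2.88% (2.93%), windows averaging 3 times the median 9.89% (3.99%) and, chosen after seeing the data, 6.9% (3.89%) of those without chromosome 4, and no filter 0.373% (0.315%). With no filter 14 subtelomeric windows were called lower, of which 2 were among the 14 of the main fit. Windows of 2 kb gave 0.119% higher (0.0266%). Leaving out chromosomes, also chosen after seeing the data, brought the *T* = 6d factor of the last 100 kb to 0.835 and 0.861 without chromosome 4 with lots 58206 and 638466, and to 0.821, 0.845 and 0.9 with the 3 antibodies without chromosomes 2, 4 and 13.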

Other observations

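The stretch beyond the last whole window, too short to form a window of its own, held at most 65 tags in any library except on chromosome 13. There the last 4577 bp, chr13:120280001-120284577, held 744, 914, 1017 and 872 tags at *T* = 0, 2d, 4d and 6d with the Upstate-type antibody, 622 and 355 at *T* = 0 and 6d with lot 58206, and 838 and 618 with lot 638466. The Upstate-type tag number was above that of *T* = 0 at every later time point, whereas in the adjoining whole window it was below it at each. With both Abcam lots the tag number was lower at *T* = 6d on either side of that boundary. On chromosome 17 the last 2902 bp held 53, 65, 33 and 9 Upstate-type tags, 24 and 7 with lot 58206 and 27 and 17 with lot 638466.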
